A study of Mus musculus with 24 samples.

Results

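The heat shock chaperones described here are 10 genes, taken by symbol from the 21894 genes in the deposited expression table. All 10 were present in the table and passed the filter on low values in both tissues. They fall into a cytosolic and nuclear group of 8 (Hspa8, Hspa1b, Hsph1, Dnaja1, Dnajb1, Hsp90aa1, Chordc1 and Hspb1) and the mitochondrial pair Hspd1 and Hspe1. RNA was sequenced from whole liver and whole brain of male mice of the inbred laboratory strain C57BL/6J. The mice ate normal chow until they were 8 weeks old and were then kept for 5 weeks on a diet holding selenium at 0 ppm, 0.1 ppm, 0.4 ppm or 2.25 ppm. There were 24 libraries, 3 for each diet in each tissue, and the letters a, b and c below name those of a group by column order. The series sets selenium deficiency beside longevity, and the comparisons below ask how chaperone transcripts stood at each selenium level.

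Molecular chaperones bind unfolded or newly made proteins and help them fold. HSP70 proteins do so in cycles of ATP hydrolysis that J-domain proteins start and HSP110 proteins reset, and HSP90 finishes the folding of kinases and steroid receptors. In mitochondria the HSP60 chamber and its HSP10 lid fold imported proteins. Most of these genes are induced by heat shock factor 1, which binds inverted repeats of the unit GAA in their promoters when unfolded proteins accumulate, and in mouse liver their transcripts also vary over the day with body temperature and feeding.

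Values are the authors' normalized reads per gene, and changes are log2 differences with a standard error (SE) from limma. A gene was called at an adjusted p under 0.05 after Benjamini-Hochberg adjustment over all genes tested in the tissue. Reads on genes numbered 11.5 to 18.4 M per liver library and 12.9 to 17.8 M per brain library. The floor of 3 reads lay at 3.12 to 5.32 normalized reads in the liver libraries and at 1.75 to 2.34 in the brain libraries. Each chaperone stood above that level in each library. Hepatocyte markers summed to between 1187799 and 2003182 normalized reads in each liver library and between 1977 and 10314 in each brain library. For neuron markers the sums were 144 to 562 per liver library and 46593 to 57939 per brain library. In brain, summed pituitary hormone transcripts were 89040 and 52861 in libraries 0 ppm a and 0.1 ppm b, against a median of 100.4 over the 12 brain libraries. These are bulk tissues, in which fewer cells of a type and less RNA per cell cannot be told apart.

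Promoter sequence was available for 8 of the 10 members (not Hspa8 and Hsp90aa1) and was searched for the heat shock element over 250 bases before each annotated start, on both strands. The short form, GAANNTTC or TTCNNGAA, was present for 6 of these 8 members (Hspb1, Hsph1, Dnaja1, Hspa1b, Hspd1 and Hspe1) and in 14.5% of 27025 mouse genes. The long form of 3 units, GAANNTTCNNGAA or TTCNNGAANNTTC, which contains the short form, was present for Hspd1 and Hspe1 and in 0.514% of genes. The stretches of 30 bases that hold the matches are shown because the element is the sequence that heat shock factor 1 binds; the members were not chosen by it. They are RefSeq sequence of the mouse build GRCm38.p6, read 5′ to 3′ on the gene's strand, with the matched bases in capitals.
Hspb1, chr5:135887801-135887830, plus strand: aGAAGTTTCcagatgggggcaGAACCTTCc
Hsph1, chr5:149636351-149636380, minus strand: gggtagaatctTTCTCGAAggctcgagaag
Dnaja1, chr4:40722333-40722362, plus strand: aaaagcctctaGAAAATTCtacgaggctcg
Hspa1b, chr17:34959324-34959353, minus strand: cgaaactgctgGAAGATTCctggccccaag
Hspd1, chr1:55088053-55088082, minus strand: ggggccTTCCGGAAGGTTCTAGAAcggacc
Hspe1, chr1:55088053-55088082, plus strand: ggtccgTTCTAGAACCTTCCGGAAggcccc

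The last 2 stretches are the same piece of DNA read from opposite strands. Hspd1 and Hspe1 lie head to head on chromosome 1, and their annotated spans share 112 bases, so reads in that stretch belong to both on position alone. The element lay 72 to 89 bases before the start of Hspe1 and 127 to 144 bases before a start of Hspd1. In Hspb1 the window held the short form at 110 to 117 and again at 90 to 97 bases before the start. Dnajb1 and Chordc1 had no match in their windows, which says only that these letters were not found there. Dnaja1 and Hspd1 also had annotated starts without a match in the window. The printed stretches of Dnaja1 and Hspd1 lie within the annotated spans of these genes, and that of Hsph1 lies partly within its span.

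In mm10, the build GRCm38, Hspa8 (ENSMUSG00000015656.17) spans chr9:40800984-40810087 on the plus strand and Hspa1b (ENSMUSG00000090877.3) chr17:34956436-34959238 on the minus strand. Hsph1 (ENSMUSG00000029657.15) spans chr5:149614287-149636376 and Hsp90aa1 (ENSMUSG00000021270.13) chr12:110690605-110702728, both on the minus strand. Dnaja1 (ENSMUSG00000028410.13) spans chr4:40722150-40737149, Dnajb1 (ENSMUSG00000005483.10) chr8:83608193-83612653, Chordc1 (ENSMUSG00000001774.8) chr9:18292125-18317442 and Hspb1 (ENSMUSG00000004951.10) chr5:135887919-135889563, all on the plus strand. Hspd1 (ENSMUSG00000025980.14) spans chr1:55077835-55088243 on the minus strand and Hspe1 (ENSMUSG00000073676.4) chr1:55088132-55091307 on the plus strand. All 10 code for proteins, and each has 1 value per library in the table. Several of them, Hspa8 and Hspe1 among these, have processed pseudogenes elsewhere in the genome, so part of their reads is uncertain.

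Per kilobase of exon, Hspa8 had the highest median level of the 10 over the 12 libraries of either tissue, at 5157 normalized reads per kilobase in liver and 3500 in brain. Hspa8 encodes HSC70, the HSP70 protein that cells make without stress. In liver it was followed by Hspd1 (median 4209), Hspe1 (1708), Hsp90aa1 (1263), Dnaja1 (708), Hspb1 (304), Hsph1 (274), Dnajb1 (213), Hspa1b (208) and Chordc1 (157). Neighbours in that order overlapped in their ranges over the 12 libraries, except Hspd1 (3699 to 4729) and Hspe1 (1421 to 1989). In brain the order after Hspa8 was Hsp90aa1 (2436), Hspd1 (694), Hsph1 (446), Hspe1 (316), Dnaja1 (286), Dnajb1 (181), Chordc1 (136), Hspb1 (68.7) and Hspa1b (19.9). There Hspa8 and Hsp90aa1, Hsp90aa1 and Hspd1, Hsph1 and Hspe1, and Chordc1 and Hspb1 did not overlap, and the other neighbours did. The liver order depended on the diet. Hspd1 averaged above Hspa8 at 0 ppm (3949 against 3904 normalized reads per kilobase) and at 0.1 ppm (4339 against 3772), and Hspa8 above Hspd1 at 0.4 ppm (6192 against 4184) and at 2.25 ppm (9583 against 4458). Between these genes the libraries overlapped at 0 and 0.1 ppm and not at 0.4 and 2.25 ppm. Hsp90aa1 averaged above Hspe1 at 2.25 ppm (2070.4 against 1918), with overlap, and below it on the other diets. In brain Hspa8, Hsp90aa1 and Hspd1 kept the leading ranks in this order on each diet.

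In liver the 8 cytosolic chaperones were higher at 2.25 ppm than at 0.1 ppm selenium, by 1.45-fold for Dnaja1 to 7.47-fold for Hspa1b on the fitted scale, and the mitochondrial pair did not pass the test. All 8 were called (limma, adjusted p under 0.05), where 4.23% of the 18945 genes tested were called higher. The median log2 change of the 10 members was 1.42, against 0.00 over all genes tested. In the same 8 genes the 2.25 ppm libraries lay above the 0.1 ppm libraries without overlap, which 13.3% of all genes did. The members were listed with earlier results of these data known, so their count describes them and does not test them as a group.

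**Figure D1:**
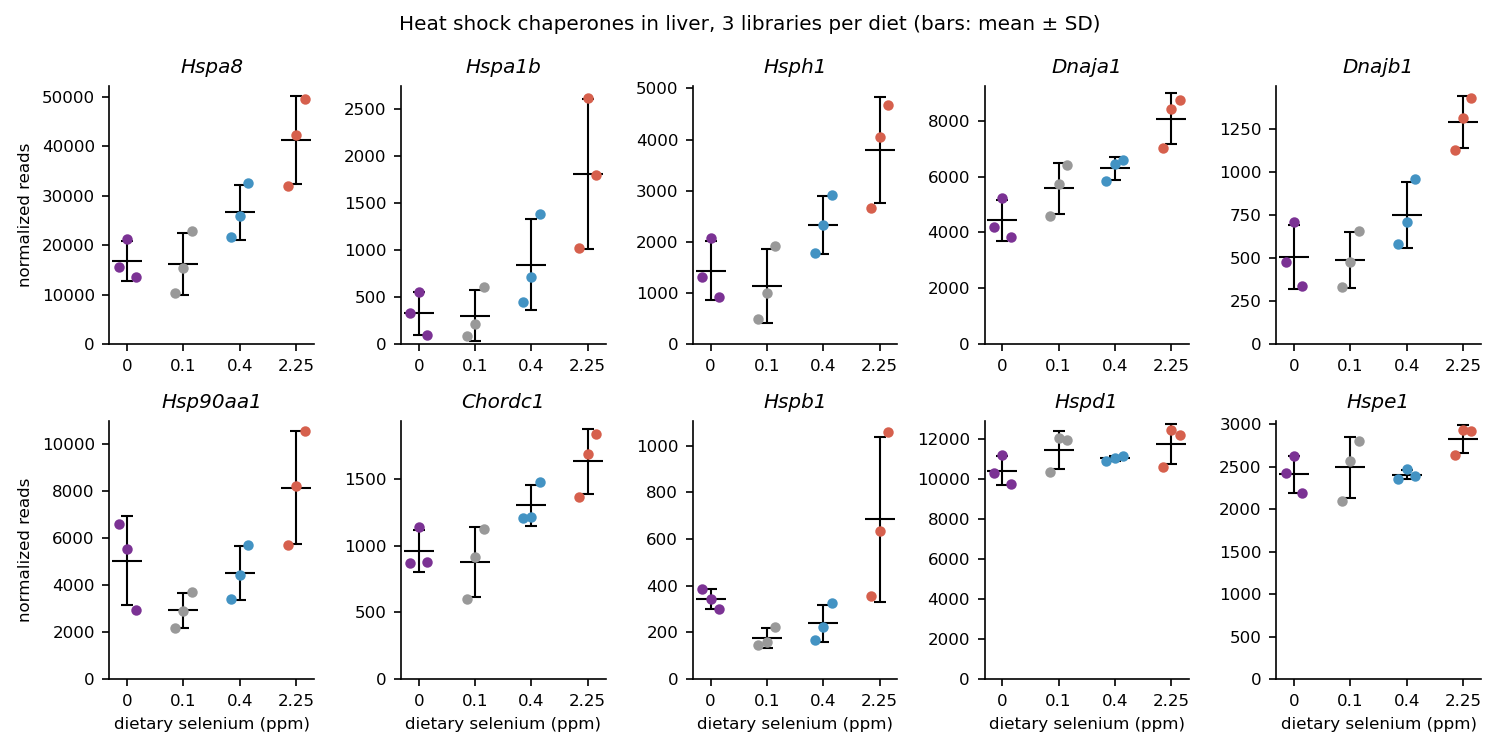
Normalized reads (vertical axes) of the 10 chaperones in each liver library by dietary selenium in ppm (horizontal axes); points are libraries, and bars are the mean ± SD of 3. The 2.25 ppm points lie above all 0.1 ppm points for the 8 cytosolic genes, whereas Hspd1 stays between 9772 and 12495 and Hspe1 between 2095 and 2933 normalized reads.

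Among the HSP70 and HSP110 proteins, Hspa8 in liver had 15635, 21195 and 13546 normalized reads at 0 ppm, 10411, 15466 and 22797 at 0.1 ppm, 21564, 25831 and 32501 at 0.4 ppm, and 31867, 42185 and 49597 at 2.25 ppm. The 2.25 ppm libraries were above those at 0 and 0.1 ppm and overlapped those at 0.4 ppm only at the edge, where 1 library of each crossed. Hspa8 averaged 41216 ± 8905 normalized reads at 2.25 ppm and 16225 ± 6228 at 0.1 ppm (SD, n = 3 each), a log2 change of 1.39 (SE 0.25, limma adjusted p = 0.00455).

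Hspa1b, one of the stress-inducible HSP70 genes, had 326, 557 and 102 normalized reads at 0 ppm, 88.1, 209.6 and 607 at 0.1 ppm, 444, 711 and 1381 at 0.4 ppm, and 1017, 2609.6 and 1791 at 2.25 ppm. Its 0 and 0.1 ppm libraries covered nearly the same range, and its 2.25 ppm libraries lay above both. The log2 change at 2.25 against 0.1 ppm was 2.90 (SE 0.67, limma adjusted p = 0.0177), and it was 2.23 without 0.1 ppm a and 3.62 without 0.1 ppm c. Hspa1a, its near-identical neighbour on chromosome 17, had 59.7, 131 and 63.0 normalized reads at 2.25 ppm and 6.99, 18.05 and 48.4 at 0.1 ppm, and its change of 2.03 did not pass (adjusted p = 0.0664). Reads can be split between these copies, so the share of each is uncertain. For the sum of both the change was 2.86 (limma adjusted p = 0.0189).

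Hsph1 encodes HSP110, a nucleotide exchange factor of HSP70. In liver it had 1309, 2066 and 929.5 normalized reads at 0 ppm, 499, 1005 and 1921 at 0.1 ppm, 1779, 2321 and 2912 at 0.4 ppm, and 2657, 4055 and 4669 at 2.25 ppm. All 2.25 ppm libraries were above all 0 and 0.1 ppm libraries, and the 0.4 ppm libraries overlapped each of these groups. The change at 2.25 against 0.1 ppm was 1.90 (SE 0.39, limma adjusted p = 0.00982).

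Both J-domain proteins, which recruit substrates to HSP70, rose at 2.25 ppm. Dnajb1, or HSP40, had 475, 705 and 339 normalized reads at 0 ppm, 330.0, 475 and 658 at 0.1 ppm, 584, 711 and 958 at 0.4 ppm, and 1125, 1309 and 1428 at 2.25 ppm. Its 2.25 ppm libraries stood above the 9 libraries of the other diets. The change against 0.1 ppm was 1.45 (SE 0.26, limma adjusted p = 0.00455). Dnaja1 had 4195, 5249.7 and 3843 normalized reads at 0 ppm, 4604, 5738 and 6403 at 0.1 ppm, 5824, 6458 and 6605 at 0.4 ppm, and 7027, 8419.7 and 8742 at 2.25 ppm. It was the member whose means climbed at each step of selenium from the 0 ppm group up, and its 2.25 ppm libraries also stood above the other 9. Its change against 0.1 ppm was the smallest of the 8, at 0.54 (SE 0.13, limma adjusted p = 0.0246).

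Hsp90aa1, the inducible HSP90 alpha, had 6609.8, 5522 and 2934 normalized reads at 0 ppm, 2185, 2875 and 3688 at 0.1 ppm, 3395, 4404 and 5707 at 0.4 ppm, and 5700.1, 8186 and 10531 at 2.25 ppm. At 0 ppm, library a lay within the 2.25 ppm range, b just below it and c within the 0.1 ppm range. The change at 2.25 against 0.1 ppm was 1.47 (SE 0.29, limma adjusted p = 0.00805). Chordc1 encodes an HSP90-binding co-chaperone with CHORD domains. It had 867, 1143 and 876 normalized reads at 0 ppm, 601, 913 and 1123 at 0.1 ppm, 1211, 1214 and 1479 at 0.4 ppm, and 1367, 1687 and 1839 at 2.25 ppm. Its libraries at 0 and 0.1 ppm all lay below those at 0.4 and 2.25 ppm. The change at 2.25 against 0.1 ppm was 0.93 (SE 0.19, limma adjusted p = 0.00898).

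Hspb1, the small heat shock protein HSP27 (HSP25 in the mouse), holds unfolded proteins without ATP. It had 385, 341 and 302 normalized reads at 0 ppm, 144, 161 and 224 at 0.1 ppm, 166, 224 and 325 at 0.4 ppm, and 357, 635 and 1061 at 2.25 ppm. Unlike Hspa8, its 0 ppm libraries lay above the 0.1 ppm libraries without overlap. At 2.25 against 0.1 ppm the change was 1.84 (SE 0.32, limma adjusted p = 0.00349), the smallest p of the 10.

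The mitochondrial pair differed from the other 8. Hspd1 encodes HSP60, the folding chamber of the mitochondrial matrix, and in liver it had 10299, 11231 and 9772 normalized reads at 0 ppm, 10357, 12069.7 and 11967 at 0.1 ppm, 10921, 11087 and 11152 at 0.4 ppm, and 10639, 12495 and 12202 at 2.25 ppm. Hspe1 encodes its lid HSP10 and had 2429, 2619 and 2183 normalized reads at 0 ppm, 2095, 2565 and 2805 at 0.1 ppm, 2357, 2469 and 2391 at 0.4 ppm, and 2637, 2933 and 2912 at 2.25 ppm. The diets overlapped for both genes at 2.25 and 0.1 ppm. The change at 2.25 against 0.1 ppm was 0.04 for Hspd1 (95% interval -0.15 to 0.23, limma adjusted p = 0.857) and 0.19 for Hspe1 (-0.02 to 0.41, adjusted p = 0.289), so increases beyond these upper bounds are outside the intervals at this spread. The difference between the cytosolic and mitochondrial members was not itself tested.

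The other comparisons between pairs of liver diets called fewer members. Except for 0 against 0.4 ppm they share libraries with the one above, and all came from the same fit. At 0 against 2.25 ppm 6 members were lower, where 4.28% of all genes were: Dnaja1 at -0.87 (SE 0.13, limma adjusted p = 0.00192), Dnajb1 at -1.40 (adjusted p = 0.0066), Hspa8 at -1.30 (0.00815), Chordc1 at -0.76 (0.0283), Hspa1b at -2.66 (0.0301) and Hsph1 at -1.44 (0.0437). Hspb1 (-0.86, adjusted p = 0.124) and Hsp90aa1 (-0.73, adjusted p = 0.158) did not pass. For 7 members the 0 ppm libraries lay below the 2.25 ppm libraries without overlap, as 13.6% of all genes did, and the seventh was Hspe1, with a log2 change of -0.23 (limma adjusted p = 0.195).

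Dnaja1 alone was lower at 0 against 0.4 ppm, by a log2 change of -0.52 (SE 0.13, limma adjusted p = 0.0467), where 2.39% of all genes were lower. That call was lost under most other settings. No member was called at 2.25 against 0.4 ppm, at 0.4 against 0.1 ppm or at 0 against 0.1 ppm by limma or edgeR. Limma called 0.0528%, 1.49% and 6.13% of all genes in these 3 comparisons. In the same order, 6, 5 and 3 members had an unadjusted limma p under 0.05, as did 2022, 2986 and 3648 of the 18945 genes tested. At 2.25 against 0.4 ppm 10 of 10 changes were above 0. At 0 against 0.1 ppm the changes were -0.33 for Dnaja1, 0.74 for Hsp90aa1 and 0.97 for Hspb1 (limma adjusted p = 0.179, 0.177 and 0.0942), and 7 of the 10 changes were above 0. Without 0.1 ppm a those of Hspa8, Hsph1, Dnajb1, Hspa1b and Chordc1 were below 0. Over the 4 diets together, the same 8 cytosolic members were called in liver, where 10.9% of genes were. Diet took up 64.3% to 79.8% of their variance, 37.8% for Hspd1, 43.3% for Hspe1 and a median of 40.1% over all genes.

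Several of these calls depended on single libraries. For 2.25 against 0.1 ppm, 6 of the 8 calls were kept in each fit that left out 1 of the 12 libraries. Dnaja1 and Hspa1b were both lost without 0.1 ppm a, 0.1 ppm b, 2.25 ppm b or 2.25 ppm c (limma adjusted p = 0.0582 to 0.0995). For 0 against 2.25 ppm the count fell to 3 without 0 ppm a, 0 ppm c, 2.25 ppm b or 2.25 ppm c, and the Hspa1b change was -1.98 without 0 ppm c. For any difference among the 4 diets it was 5 without 0.1 ppm b or 2.25 ppm b and 4 without 2.25 ppm c. Hspb1 at 0 against 0.1 ppm was called without 2.25 ppm a or c (limma adjusted p = 0.0362 and 0.0387). When limma's variance was not fitted as a trend over mean level, Hspa8, Dnajb1 and Hspb1 kept their call at 2.25 against 0.1 ppm and 0 members were called over the 4 diets.

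In brain 1 of the 10 members passed the test, Chordc1, and the estimated changes lay nearer 0 than in liver for all but Hspd1, a difference tested further on. At 2.25 against 0.1 ppm the 10 changes were all above 0, with a median of 0.39 against 0.00 over all genes. Chordc1 was the gene called, where 0.227% of the 21127 genes tested were called higher. It had 1114, 1249.9 and 999.96 normalized reads at 0 ppm, 859.6, 919 and 872 at 0.1 ppm, 994, 1002 and 1033 at 0.4 ppm, and 1168, 1174 and 1329.6 at 2.25 ppm. The 0.1 ppm libraries were the lowest 3 and the 2.25 ppm libraries overlapped only those at 0 ppm. The change was 0.47 (SE 0.08, limma adjusted p = 0.0265), and it lost its call without any 1 of the 0.1 or 2.25 ppm libraries or without 0.4 ppm b (adjusted p = 0.0506 to 0.114). It was also lost without the pair of brain libraries rich in pituitary transcripts, 1 of which is a 0.1 ppm library (adjusted p = 0.0839).

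**Figure D2:**
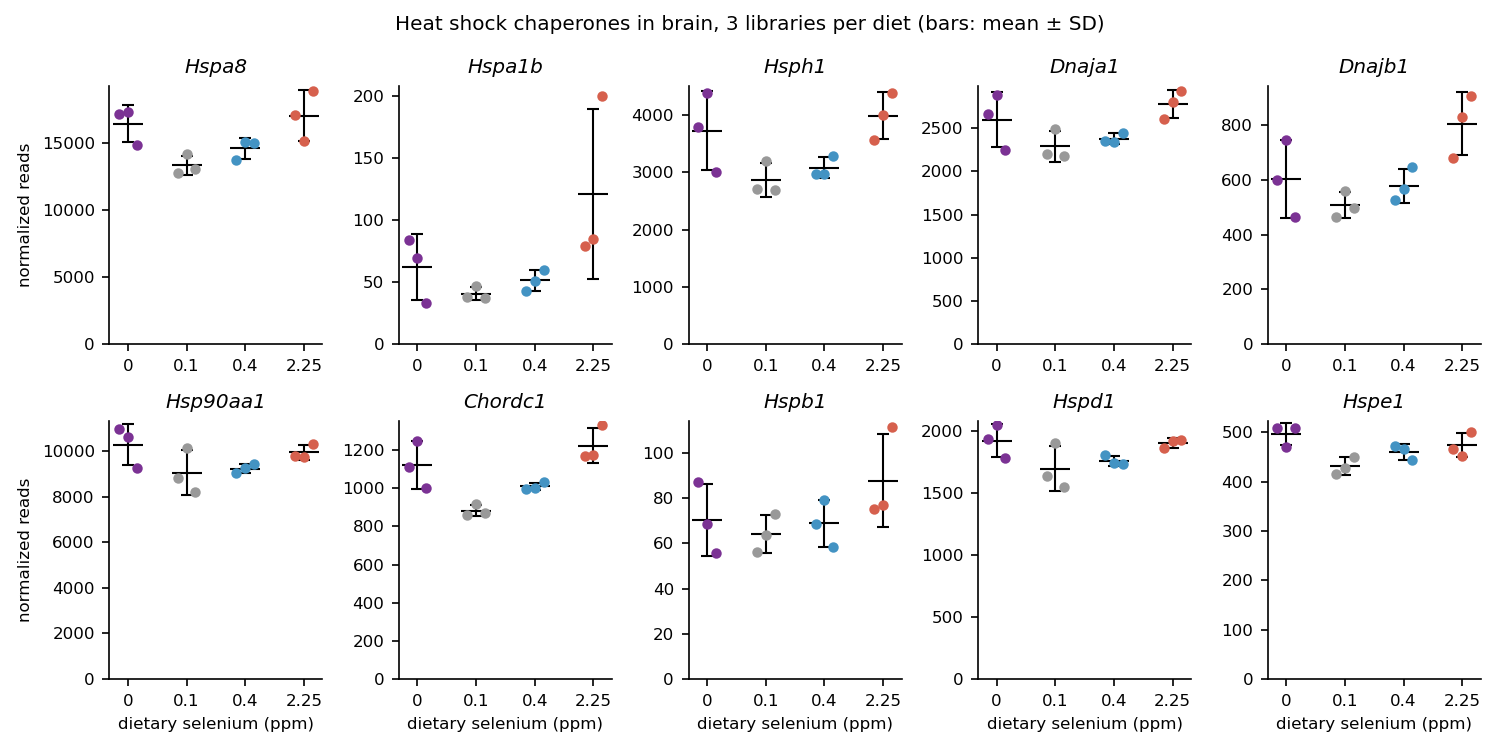
Normalized reads (vertical axes) of the 10 chaperones in each brain library by dietary selenium in ppm (horizontal axes); points are libraries, and bars are the mean ± SD of 3. Chordc1 is lowest at 0.1 ppm, with 859.6 to 919 normalized reads, and a Hspa1b library of the 2.25 ppm diet stands at 199.8.

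The other 9 members did not pass the test in brain at 2.25 against 0.1 ppm. Of the 10, 8 had an unadjusted limma p under 0.05, as did 2757 of the 21127 genes tested. In 8 of 10 the 2.25 ppm libraries lay above the 0.1 ppm libraries without overlap, as 9.13% of all genes did, with Hspd1 and Hsp90aa1 the exceptions. Hspa1b had 84.4, 69.3 and 33.1 normalized reads at 0 ppm, 37.8, 46.8 and 37.3 at 0.1 ppm, 43.1, 51.2 and 60.2 at 0.4 ppm, and 78.8, 84.6 and 199.8 at 2.25 ppm. Its highest value came from the single library 2.25 ppm c, and its change was 1.42 (SE 0.35, limma adjusted p = 0.0975). Hsph1 had 3785, 4379 and 3012 normalized reads at 0 ppm, 2702, 3197 and 2681 at 0.1 ppm, 2964, 2976 and 3284 at 0.4 ppm, and 3562, 4000.1 and 4385 at 2.25 ppm, a change of 0.48 (adjusted p = 0.106). Dnajb1 changed by 0.66 (SE 0.15, adjusted p = 0.078) and Hspa8 by 0.35 (SE 0.09, adjusted p = 0.113).

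The other brain members did not pass either. Hsp90aa1 had 10958, 10612 and 9260.3 normalized reads at 0 ppm, 8840.5, 10129 and 8209.7 at 0.1 ppm, 9039.6, 9256 and 9414 at 0.4 ppm, and 9765, 9740.1 and 10329 at 2.25 ppm. The 0.1 ppm diet held both its lowest library and a library above 2 of the 3 at 2.25 ppm, and the change was 0.14 (95% interval -0.04 to 0.32, limma adjusted p = 0.503). Dnaja1 changed by 0.28 and Hspb1 by 0.43 (adjusted p = 0.168 and 0.373), with Hspb1 at only 55.6 to 111 normalized reads in brain. Hspd1 had 1549.8 to 2048 normalized reads over the 12 brain libraries and changed by 0.17, and Hspe1 had 415 to 509 and changed by 0.13 (adjusted p = 0.35 and 0.422).

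At 2.25 against 0.4 ppm in brain, 8 of 10 members again had libraries that did not overlap, all higher, as 6.79% of all genes did. An unadjusted limma p under 0.05 was reached by 6 members and by 1317 of the 21127 genes tested. No member was called by limma or edgeR, and 0% of genes were. At 0 against 0.1 ppm the 10 changes were above 0 (median 0.21), and none was called by either tool (0.0284% of genes were). Of these members 6 had an unadjusted limma p under 0.05, as did 1468 of all genes tested. In the remaining brain comparisons, limma and edgeR also called 0 members. Those were 0.4 against 0.1 ppm (0.00947% of genes called), 0 against 0.4 ppm (0.0189%), 0 against 2.25 ppm (0.00473%) and any difference among diets (0.0189%). In these pairs of diets, in order, 1, 1 and 2 members had an unadjusted limma p under 0.05, as did 1708, 1166 and 1657 of all genes tested. For any difference among diets 6 members did, without a count over all genes beside it.

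The liver change was set against the brain change in a fit over all 24 libraries. At 2.25 against 0.1 ppm, Hsp90aa1 changed more in liver than in brain by 1.33 on the log2 scale (SE 0.35, limma adjusted p = 0.0426), where 1.3% of the 21889 genes tested were called in that direction. The call was lost without any 1 of the 12 brain libraries. The same difference was 1.41 for Hspb1 (SE 0.42, adjusted p = 0.0803), 1.04 for Hspa8 (SE 0.30, adjusted p = 0.0682), 1.42 for Hsph1 (SE 0.48, adjusted p = 0.129) and 1.48 for Hspa1b (SE 0.88, adjusted p = 0.461), none of them past the threshold. Chordc1, the gene called in both tissues, differed by 0.46 (95% interval -0.02 to 0.94, adjusted p = 0.359). At 2.25 against 0.4 ppm no member was called as different between tissues (limma and edgeR both 0, 0.0365% of genes called). An unadjusted limma p under 0.05 was reached by 2 members and by 1721 of the 21889 genes tested.

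**Figure D3:**
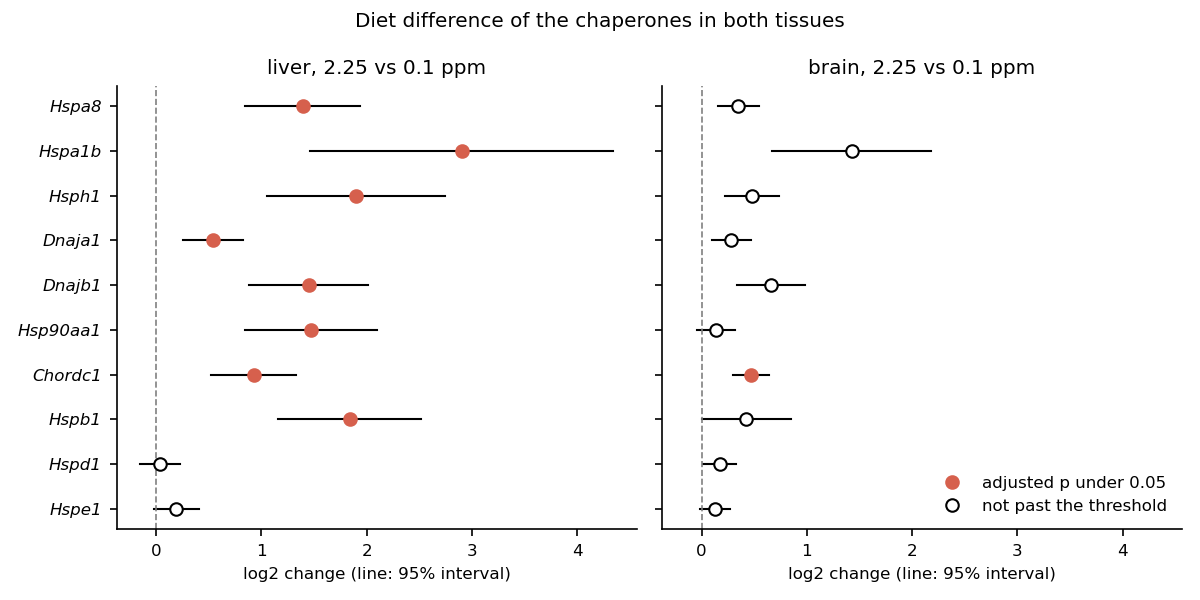
Log2 change of each chaperone at 2.25 against 0.1 ppm selenium (horizontal axes) in liver and brain; points are limma estimates, lines 95% intervals, and filled points have an adjusted p under 0.05. The 8 cytosolic genes are filled in liver, from 0.54 for Dnaja1 to 2.90 for Hspa1b, and Chordc1 alone, at 0.47, in brain.

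The cytosolic members varied together from library to library. Over the 12 liver libraries the 28 pairs of cytosolic members had Pearson correlations of log2 values from 0.53 to 0.98 (median 0.87), and the median within diets, after removing each diet's mean, was also 0.87. In brain the median was 0.84 over all libraries and 0.75 within diets. Hspd1 and Hspe1 correlated at 0.84 in liver and 0.41 in brain (12 libraries each), and the pairs of 1 cytosolic and 1 mitochondrial member had medians of 0.69 in liver and 0.60 in brain. Within diets the mitochondrial pair correlated at 0.89 in liver and -0.31 in brain, and the mixed pairs had medians of 0.85 in liver and 0.31 in brain, where they ran from -0.31 to 0.87. All points share their libraries, so these correlations are given as a description.

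Other genes with a mean of at least 100 normalized reads were ranked by their correlation with the mean of the 10 standardized members. Genes with symbols of predicted genes or clones, such as Gm and Rik names, were left out of the ranking. Over the 12 liver libraries the most like were Bag3 (r = 0.97), Atp2a2 (0.96), P4ha1 (0.96), Zfp592 (0.96) and Fkbp4 (0.94). Bag3 is a nucleotide exchange factor of HSP70 and Fkbp4 an HSP90-bound immunophilin. Atp2a2 encodes the calcium pump SERCA2 and P4ha1 a collagen prolyl hydroxylase. In brain the closest genes were Hspa5 (r = 0.97), Xbp1 (0.97), Slc5a3 (0.96), Ptp4a1 (0.95) and Pdia6 (0.95), of which Hspa5 (BiP) and Pdia6 work in the endoplasmic reticulum, and Xbp1 is a transcription factor of its unfolded protein response.

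Most chaperones outside the 10 did not pass the test in liver at 2.25 against 0.1 ppm. Of 74 other genes tested that were listed as cytosolic and mitochondrial chaperones or partners, 8 rose and 4 fell, with a median change of 0.02. Over all genes tested, 4.23% were called higher and 3.62% lower. The HSP90 partners held 5 of the 8, among 13 tested. Hsp90ab1, the constitutive HSP90 beta, had 21418, 27258 and 32934 normalized reads at 2.25 ppm and 12334, 15723 and 18525 at 0.1 ppm, without overlap, and rose by 0.81 (limma adjusted p = 0.0159). Fkbp4 rose by 0.89 (adjusted p = 0.00245), Stip1, which bridges HSP70 and HSP90, by 1.08 (0.00424) and Ahsa2, an activator of the HSP90 ATPase, by 0.79 (0.00433). Among 15 rows of HSP70 relatives and partners, Bag3 rose by 1.14 (adjusted p = 0.0211) and the HSP110 relative Hspa4l by 0.84 (0.033), and 1 of the 2 rows named Hspa14 fell by 0.37 (0.0422).

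Of 11 other J-domain genes Dnajb2 rose by 0.54 (limma adjusted p = 0.0276) and Dnajb6 fell by 0.39 (0.0225). Among 6 other genes listed as small heat shock proteins, whether or not each is a chaperone, Hspb11 fell by 0.59 (0.0479). None of 14 genes of the TRiC chaperonin and prefoldin, which fold actin and tubulin, was called (median 0.07). Of 15 other mitochondrial chaperones and proteases 1 was called, the nucleotide exchange factor Grpel2, which fell by 0.62 (adjusted p = 0.00299), with a median of -0.05. Of the heat shock factors, Hsf2 was called and Hsf1 was not. Hsf1 had 394, 367 and 423 normalized reads at 2.25 ppm and 263, 326 and 402 at 0.1 ppm, which overlapped (change 0.28, adjusted p = 0.267), and Hsf2 rose by 0.48 (adjusted p = 0.0498), at the edge of the threshold. None of 11 immediate early genes (median 0.55) and none of 5 ubiquitin stress genes (median 0.21) was called.

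**Figure D4:**
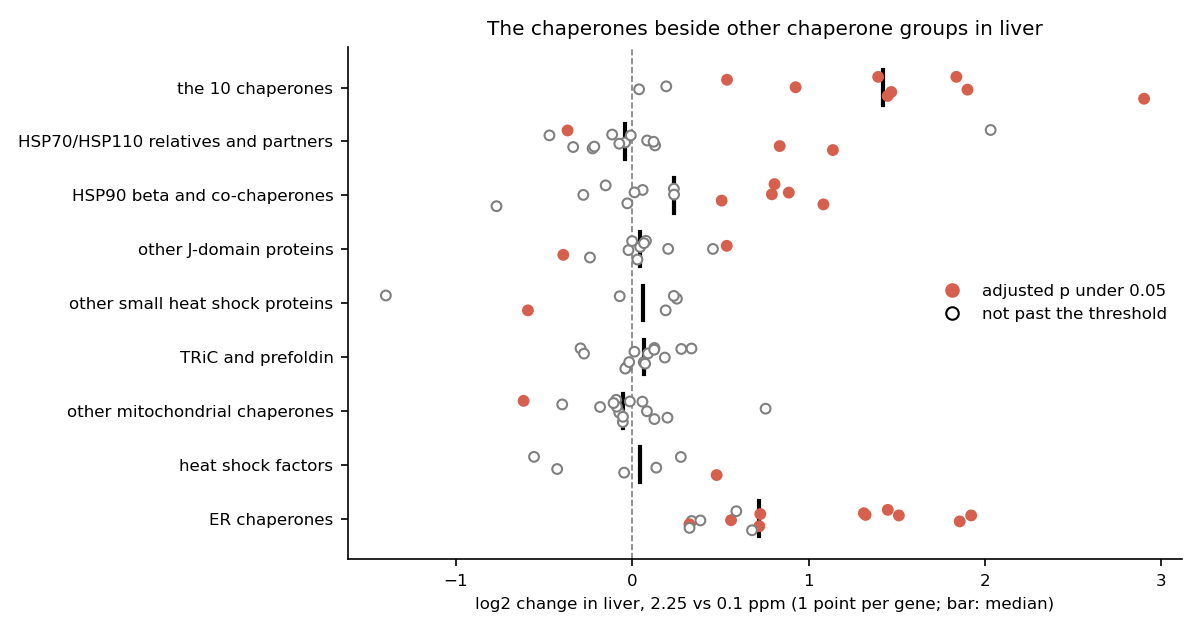
Log2 change in liver at 2.25 against 0.1 ppm selenium (horizontal axis) for the 10 chaperones and for other chaperone groups (rows); each point is a gene, filled at an adjusted p under 0.05, and each bar is the group's median. The medians are 1.42 for the 10 chaperones, 0.24 for HSP90 beta and co-chaperones, 0.72 for ER chaperones and between -0.05 and 0.07 for the other groups.

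Chaperones of the endoplasmic reticulum (ER), which fold secreted proteins and are induced by another pathway, rose with the cytosolic ones. Of 15 tested in liver at 2.25 against 0.1 ppm, 10 rose and none fell, with a median change of 0.72. Over all genes tested, 4.23% were called higher there. Sdf2l1 rose by 1.92 (limma adjusted p = 0.00396), Manf by 1.51 (0.00245), Pdia4 by 1.31 (0.00396) and Calr, or calreticulin, by 0.73 (0.00363). At 0 against 0.1 ppm in liver 7 of these 15 rose, where 1.82% of all genes were called higher. In brain at 2.25 against 0.1 ppm, Creld2 of the ER list (0.66, limma adjusted p = 0.0306) and Ahsa2 of the HSP90 partners (0.52, limma adjusted p = 0.0284) rose. Of the 75 other cytosolic and mitochondrial chaperones tested in brain Ahsa2 was the single gene called, where 0.227% of all genes were called higher.

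Clock transcripts and the temperature-responsive Cirbp were also called between these diets. Dbp, an output gene of the circadian clock, had 101, 216 and 107 normalized reads in liver at 2.25 ppm and 1363, 1056 and 836 at 0.1 ppm, a log2 change of -2.99 (limma adjusted p = 0.00179). The clock gene Arntl had 438, 261 and 333 normalized reads at 2.25 ppm and 33.6, 38.9 and 46.9 at 0.1 ppm (change 3.06, adjusted p = 0.00181). Neither gene's groups overlapped. Of 18 clock genes tested 9 were called in this comparison, where 7.85% of all genes were called in either direction. Cirbp, an RNA-binding protein that is raised by cooling and lowered by warming, had 195, 234 and 167 normalized reads at 2.25 ppm and 479.6, 498 and 368 at 0.1 ppm (change -1.17, adjusted p = 0.00104). Its relative Rbm3 changed by -0.11 (adjusted p = 0.598).

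Within diets the relation between Dbp and the chaperones was not the same throughout. In liver at both 0.1 and 0.4 ppm, the library highest in Dbp (a in each) was the lowest of the 3 for 10 of 10 chaperones. At 0 ppm, library c had 1672 normalized reads of Dbp, against 428 and 463 in a and b, and was the lowest for 9 of 10. At 2.25 ppm, library b was highest in Dbp and was the lowest for none. The library highest in Cirbp was the lowest for 9 of 10 at 0 ppm, 0 of 10 at 0.1 ppm, 10 of 10 at 0.4 ppm and 0 of 10 at 2.25 ppm. In turn, the library lowest in Cirbp was the highest for 2, 9, 9 and 7 of 10 on these diets. For the library lowest in Dbp these counts were 2, 9, 9 and 0 of 10. Over the 12 liver libraries the mean of the 10 chaperones had r = -0.85 with Dbp, -0.76 with Cirbp and 0.02 with Rbm3. With Arntl it had r = 0.82, with Hsf1 0.76, with Hsp90ab1 0.93 and with Hspa5 0.88.

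**Figure D5:**
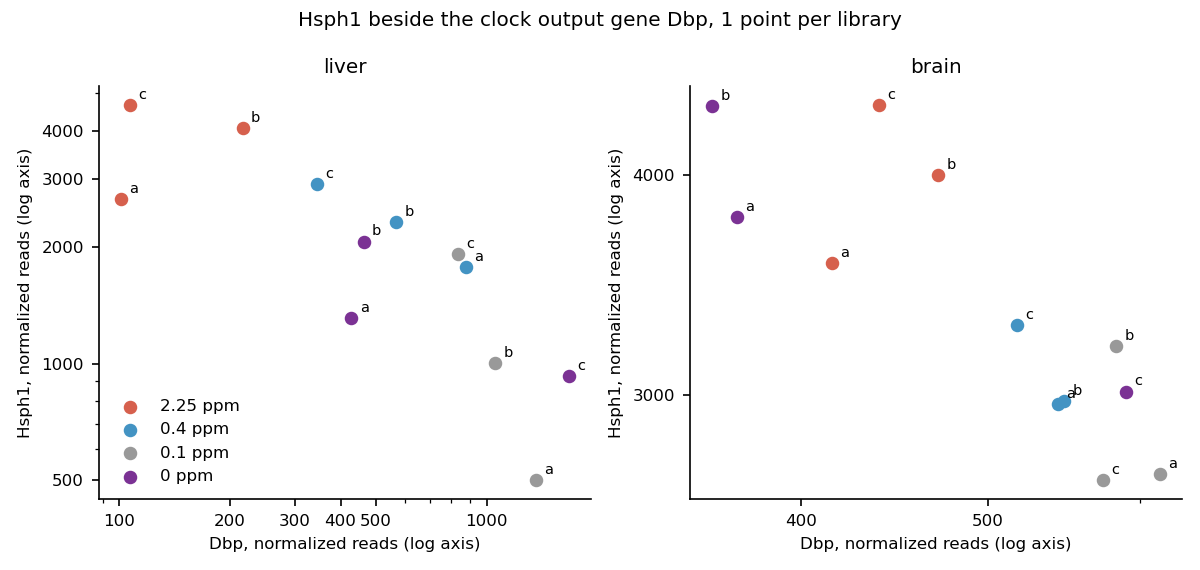
Hsph1 (vertical axes) against Dbp (horizontal axes), both in normalized reads on log axes, with 1 lettered point per library in liver and brain, coloured by diet. In liver Hsph1 runs from 499 normalized reads in 0.1 ppm a, with Dbp at 1363, to 4669 in 2.25 ppm c, with Dbp at 107.

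In brain Cirbp had 599, 595 and 418 normalized reads at 2.25 ppm and 1068, 925 and 861 at 0.1 ppm, without overlap, and fell by 0.84 (limma adjusted p = 0.041). It was among the 5 ranked genes most opposite to the chaperones there (r = -0.94 over 12 libraries), and there Dbp had r = -0.85 and Rbm3 -0.52. Arntl had r = 0.72 with the chaperone mean in brain, Hsf1 0.34 and Hsp90ab1 0.85. Dbp had 415, 471 and 439 normalized reads at 2.25 ppm and 614, 583 and 574 at 0.1 ppm, without overlap. Its change of -0.42 did not pass (limma adjusted p = 0.219). Another clock gene, Ciart, was called in brain at 2.25 against 0.1 ppm, with a change of -0.76 (limma adjusted p = 0.0298). Brain library 0 ppm c, the highest of its diet in both Dbp and Cirbp, was the lowest of the 3 for 9 of 10 chaperones. On the other brain diets the library highest in Dbp was the lowest for 5 of 10 at 0.1 ppm, 1 of 10 at 0.4 ppm and 3 of 10 at 2.25 ppm, and the library highest in Cirbp for 5, 6 and 7 of 10. The brain library lowest in Dbp was the highest for 6, 2, 6 and 0 of 10 at 0, 0.1, 0.4 and 2.25 ppm. For the library lowest in Cirbp these counts were 6, 2, 2 and 10 of 10.

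When the first 2 principal components of the clock genes were added to the liver fit, no chaperone was called in any comparison, and 9 of the 10 changes at 2.25 against 0.1 ppm turned negative, Hspb1 (0.53) being the exception. Diet itself took up 70.8% and 88.3% of the variance of these components, so in that fit diet and clock state cannot be told apart. Without the 2 liver libraries highest in Dbp (0 ppm c and 0.1 ppm a), an alternative chosen after seeing the data, 7 members were called at 2.25 against 0.1 ppm and 6 at 0 against 2.25 ppm. Hsph1 then changed by 1.41 (limma adjusted p = 0.0138), Hspa8 by 1.11 (0.00968) and Dnaja1 by 0.41 (0.0522) at 2.25 against 0.1 ppm. The labels give no hour of collection and no feeding state, and the part of either in the chaperone differences was not tested.

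Summed markers of the cell types of liver and blood overlapped between these diets. Summed hepatocyte markers were 1716126 to 2003182 normalized reads at 2.25 ppm and 1597503 to 1995098 at 0.1 ppm, and summed endothelial markers 3848 to 4534 at 2.25 ppm and 3969.6 to 4325 at 0.1 ppm. Summed Kupffer cell and leukocyte markers were 5691 to 7304 at 2.25 ppm and 6296 to 7042 at 0.1 ppm. Stellate cell and cholangiocyte markers summed to 4811 to 5327 at 2.25 ppm and 4541 to 4983 at 0.1 ppm, and red blood cell markers to 3988 to 5169.6 at 2.25 ppm and 3977 to 4472 at 0.1 ppm. Of the single markers on these lists Sox9, of bile duct cells, was the one called. It had 113 to 203 normalized reads at 2.25 ppm and 26.6 to 83.6 at 0.1 ppm, without overlap (log2 change 1.499, limma adjusted p = 0.0234). Their part in the chaperone differences was not tested.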

How the data were processed

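The authors deposited a table of normalized signal per gene for 24 libraries. The mouse build mm10, STAR 2.5.2b and RSEM 1.3.0 are named in the submitters' processing notes, beside Trimmomatic 0.33, bcl2fastq 2.17 and limma 3.34.5. TRIzol extraction and a stranded total RNA kit are given per the labels' protocols. How reads were normalized is not given in the sources used here. The values themselves are whole reads divided by 1 factor per library, since 525456 of 525456 deposited values lay within 0.01 of a whole read after multiplying it back. Since that factor moves every gene of a library alike, quantile normalization and TMM were tried as well.

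Here log2(value + 1) was tested with limma 3.58.1 in R 4.3.3 (mean-variance trend, Benjamini-Hochberg adjustment over all genes tested), keeping genes with 3 or more libraries at a value of at least 1. The 12 libraries of a tissue entered 1 fit, and the tissue difference used all 24. The log2 scale understates changes of low genes. The counts recovered from the deposited values were tested with the quasi-likelihood test of edgeR 4.0.16. The procedure was tested on simulated data. Exon lengths came from GENCODE annotation of GRCm38.

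Columns name tissue and diet without replicate numbers, so letters pair nothing, and p-values measure the spread between libraries, which may be technical. Libraries of a group were not repeats of 1 library, since the chi-square per gene was 4.01 to 56.5 over the 24 such pairs. Intervals and floors of 3 reads cover counting error or this spread only. The members, lists, tests and rule for named genes (all members, up to 4 called genes of each other list with the smallest p, and the 5 genes most like the members) were chosen with earlier results of these data known. Metabolite and microRNA profiles were not analysed here.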

Additional observations from a re-analysis of the deposited data

Results flagged for a closer look

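The diet difference of Hsp90aa1 differed between tissues in a test of that difference itself. Its log2 change at 2.25 against 0.1 ppm was 1.47 in liver and 0.14 in brain, a difference of 1.33 (SE 0.35, limma adjusted p = 0.0426, edgeR adjusted p = 0.0313). Liver libraries had 5700.1, 8186 and 10531 normalized reads at 2.25 ppm and 2185, 2875 and 3688 at 0.1 ppm, and brain libraries had 9765, 9740.1 and 10329 at 2.25 ppm and 8840.5, 10129 and 8209.7 at 0.1 ppm. The call was lost without any 1 of the 12 brain libraries and, among liver libraries, without 0.1 ppm a, 0.1 ppm b, 0.4 ppm b, 2.25 ppm b or 2.25 ppm c, where the adjusted p was 0.0511 to 0.114. Dbp, which ran opposite to the chaperones in liver (r = -0.85 with their mean), fell more there than in brain. The difference for Dbp was -2.57 (limma adjusted p = 0.0152), and its part in the Hsp90aa1 difference was not tested.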

How the results depend on the processing

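No paired analysis was possible because the columns carry tissue and diet but no replicate number. Over all alternatives, 3080 results for single members kept their side of the threshold and, where they have one, their direction, 108 lost a call, 16 gained 1 and 100 reversed. The reversed values include 14 that were called as reported, all with the clock components, and none was past the threshold after it reversed. Without the mean-variance trend the members called were 3 at 2.25 against 0.1 ppm, 1 at 0 against 2.25 ppm and 0 for any diet in liver. The Dnaja1 call at 0 against 0.4 ppm became 0 without a filter, with a pseudocount of 0.1, under quantile normalization, without the trend, with the clock components and on only 6 libraries. On only 6 libraries, 1 member (Hspb1) was called at 0 against 0.1 ppm in liver and 0 at 2.25 against 0.1 ppm in brain, where 0 also remained without the trend or without the pair of pituitary-rich libraries (chosen after seeing the data). The liver minus brain count was 0 with a pseudocount of 0.1 or without the trend. With the 2 clock components, 0 members were called in liver and 41 changes reversed. Those at 2.25 against 0.1 ppm became -0.59 for Hspa8, -0.74 for Dnajb1, -0.044 for Hsp90aa1, -1.23 for Hsph1, -0.34 for Dnaja1, -2.50 for Hspa1b, -0.40 for Chordc1, -0.27 for Hspd1 and -0.36 for Hspe1. At 2.25 against 0.4 ppm they were -0.70 for Hspa8, -0.65 for Dnajb1, -0.13 for Hsp90aa1, -1.40 for Hsph1, -0.23 for Dnaja1, -2.44 for Hspa1b, -0.58 for Chordc1, -0.12 for Hspd1 and -0.14 for Hspe1. At 0.4 against 0.1 ppm they were -0.031 for Hspb1, -0.089 for Dnajb1, -0.11 for Dnaja1 and -0.058 for Hspa1b. At 0 against 0.1 ppm the value was 0.12 for Hspe1. At 0 against 0.4 ppm they were 0.71 for Hspa8, 0.63 for Dnajb1, 1.32 for Hsph1, 0.060 for Dnaja1, 1.66 for Hspa1b, 0.60 for Chordc1, 0.13 for Hspd1 and 0.34 for Hspe1. At 0 against 2.25 ppm they were 1.41 for Hspa8, 0.82 for Hspb1, 1.28 for Dnajb1, 0.51 for Hsp90aa1, 2.73 for Hsph1, 0.29 for Dnaja1, 4.10 for Hspa1b, 1.18 for Chordc1, 0.25 for Hspd1 and 0.48 for Hspe1. Under quantile normalization changes near 0 reversed at 0.4 against 0.1 ppm to 0.012 for Hspe1, at 0 against 0.1 ppm to 0.030 for Hspe1, at 0 against 0.4 ppm to 0.017 for Hspe1, in brain at 2.25 against 0.4 ppm to -0.0068 for Hsp90aa1 and in the liver minus brain difference at 2.25 against 0.4 ppm to -0.35 for Hspa1b and -0.018 for Chordc1. With edgeR they reversed at 0 against 0.4 ppm to 0.0055 for Hspe1 and in the liver minus brain difference at 2.25 against 0.4 ppm to -0.18 for Hspa1b. Without the liver pair highest in Dbp they reversed at 2.25 against 0.1 ppm to -0.033 for Hspd1, at 0 against 0.1 ppm to -0.045 for Hspa8 and -0.025 for Chordc1 and at 0 against 0.4 ppm to 0.069 for Hspe1. Without the pituitary-rich brain pair they reversed in brain at 0 against 0.1 ppm to -0.054 for Hspb1, in brain at 0 against 0.4 ppm to -0.14 for Hspb1 and -0.088 for Hspa1b and in brain at 0 against 2.25 ppm to -0.0040 for Hsp90aa1. Leaving out 1 library at a time, counts ranged in liver from 6 to 8 (2.25 against 0.1 ppm), 3 to 6 (0 against 2.25 ppm), 0 to 1 (0 against 0.4 ppm, 0 against 0.1 ppm and 2.25 against 0.4 ppm), 0 to 2 (0.4 against 0.1 ppm) and 4 to 8 (any diet). In brain at 2.25 against 0.1 ppm the count ranged from 0 to 4, the 4 without 0 ppm c, and in the tissue difference from 0 to 3. Changes of 26 uncalled results turned in sign when 1 library was left out, with these ranges over such fits. In liver at 0 against 0.4 ppm they were -0.13 to 0.46 for Hsp90aa1 and -0.063 to 0.069 for Hspe1. In liver at 0 against 0.1 ppm they were -0.19 to 0.38 for Hspa8, -0.22 to 0.30 for Dnajb1, -0.43 to 0.96 for Hspa1b, -0.16 to 0.052 for Hspe1, -0.031 to 0.94 for Hsph1 and -0.086 to 0.36 for Chordc1. In liver at 2.25 against 0.1 ppm they were -0.033 to 0.11 for Hspd1. In liver at 0.4 against 0.1 ppm they were -0.16 to 0.053 for Hspe1. In brain at 0 against 0.1 ppm they were -0.051 to 0.27 for Hspb1. In brain at 0 against 0.4 ppm they were -0.14 to 0.18 for Hspb1, -0.088 to 0.57 for Hspa1b and -0.13 to 0.21 for Dnajb1. In brain at 0 against 2.25 ppm they were -0.0040 to 0.12 for Hsp90aa1, -0.035 to 0.065 for Hspd1, -0.13 to 0.029 for Hspa8 and -0.23 to 0.037 for Hsph1. In brain at 0.4 against 0.1 ppm they were -0.035 to 0.12 for Hsp90aa1, -0.0045 to 0.14 for Hspd1 and -0.013 to 0.20 for Hspb1. In brain at 2.25 against 0.4 ppm they were -0.0015 to 0.070 for Hspe1. For the liver minus brain difference at 2.25 against 0.4 ppm they were -0.33 to 0.48 for Hspa1b, -0.046 to 0.17 for Chordc1 and -0.069 to 0.047 for Hspd1. For the liver minus brain difference at 2.25 against 0.1 ppm they were -0.059 to 0.15 for Hspe1. The causes of these shifts were not tested. The 6-library fits hold fewer samples, and 70.8% and 88.3% of the variance of the clock components lay between diets.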

Other observations

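The 5 ranked genes most opposite to the chaperone mean in liver were Phyhd1, Il1r1, Hif1a, Brd8 and Fancl (r = -0.95 to -0.92). In brain they were Guf1, Cirbp, Rsrp1, Zfp386 and Trub2 (r = -0.95 to -0.94). Both rankings used 12 libraries and are given as a description. The standardized chaperone mean was lowest in 0.1 ppm a in both tissues, at -1.55 in liver and -1.28 in brain, and highest in 2.25 ppm c in both, at 1.53 and 1.57, although nothing links the liver and brain libraries of a mouse.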
